A study of Mus musculus with 28 samples.

Results

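The genes described here are 7 mouse genes of the major histocompatibility complex (MHC) class I system: H2-Q1, H2-Q7, H2-Q10, H2-K1, H2-D1, H2-T23 and B2m. They were measured by the 18 array probes that the scanner files list under these gene names, of 41174 probes that were not controls. H2-Q1, H2-Q7 and H2-T23 had 1 probe each, H2-D1 and B2m had 3, H2-K1 had 4 and H2-Q10 had 5. H2-Q1 was selected on its measured difference between HFD and SD livers, and the rest as other genes of the class I system, so the H2-Q1 values in comparisons that use those livers are descriptions and carry no test. The samples were livers of 28 mice, all male C57/6J, and each liver's RNA went on an array of its own. All mice entered at 7 weeks of age, were fed their diets for 26 weeks and were 33 weeks old at the end. The high fat diet held 0.4% quercetin (4 g per kg of diet) in 5 mice (HQ), 0.4% resveratrol (4 g per kg) in 6 mice (HR), and 0.2% of each (2 g per kg of each) in 6 mice (HQR). It was fed without a supplement to 6 mice (HFD), and 5 mice received the standard diet (SD). Quercetin is a flavonol and resveratrol a stilbene, both plant polyphenols. Degraded RNA samples were not put on arrays, per the labels.

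MHC class I molecules sit on the surface of nearly all nucleated cells and show peptides from inside the cell to cytotoxic T cells and natural killer cells. A heavy chain binds the peptide and pairs with the light chain beta-2 microglobulin, the product of B2m, without which most class I molecules do not reach the surface. H2-K1 and H2-D1 encode the classical heavy chains of these mice. H2-Q1, H2-Q7, H2-Q10 and H2-T23 are non-classical heavy chain genes, and H2-Q10 encodes a soluble form that the liver secretes into blood. Heavy chain genes arose by duplication and are alike in sequence, so that RNA of one gene can bind a probe designed for another.

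The probes are 60 bases long. Their sequences were compared with those of other probes on the array, to find members that could share signal. A match to a part of a transcript that has no probe is missed in this way. The H2-Q1 probe lies at chr17:35461951-35462010 (build mm9, plus strand). Its longest run of bases shared with a probe of another member was 8, and its matches to whole transcripts were not examined. Its first 30 bases are shown because the diet difference described below rests on this probe, the only one named H2-Q1 in the files.
H2-Q1 probe A_52_P231729: cactggacacatcttcaaagtgttgtaata

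H2-Q7 and H2-T23 were each measured by a probe that the other resembles. The H2-Q7 probe (chr17:35579687-35579918, plus strand) and the H2-T23 probe (chr17:36167338-36167574, minus strand) span more than their own length. They share a run of 28 bases, in capitals, and differ at 9 of the 59 bases that overlap when aligned.
H2-Q7 probe A_51_P262079: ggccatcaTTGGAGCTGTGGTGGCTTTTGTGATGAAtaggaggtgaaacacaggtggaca
H2-T23 probe A_51_P237754: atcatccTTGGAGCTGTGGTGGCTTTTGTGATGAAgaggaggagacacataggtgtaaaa

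Probes of H2-Q10 (chr17:35607907-35607966, plus strand) and H2-K1 (chr17:34136288-34136347, minus strand) formed another pair. They share the 20 bases in capitals and differ at 12 of 52 aligned bases.
H2-Q10 probe A_52_P428354: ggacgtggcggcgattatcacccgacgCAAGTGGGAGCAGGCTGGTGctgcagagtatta
H2-K1 probe A_52_P50496: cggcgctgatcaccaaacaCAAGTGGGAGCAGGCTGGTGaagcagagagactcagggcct

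Another H2-Q10 probe (chr17:35610210-35610269, plus strand) is listed in the files for transcripts of H2-Q10, H2-D1, H2-Q1 and H2-Q6. Its first 35 bases, in capitals, also occur in the array's H2-Q5 probe. An H2-D1 probe (chr17:35403132-35403191, plus strand) is listed for H2-D1 and H2-Q2. It shares the 24 bases in capitals with an H2-Q2 probe and differs from it at 3 of 50 aligned bases.
H2-Q10 probe A_51_P496997: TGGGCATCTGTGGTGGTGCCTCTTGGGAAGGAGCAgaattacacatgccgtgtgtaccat
H2-D1 probe A_52_P313279: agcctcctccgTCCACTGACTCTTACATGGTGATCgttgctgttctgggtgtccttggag

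H2-K1 had a second pair of like probes, A_51_P198434 (chr17:34133055-34133114, minus strand) and A_51_P190499, for which the files give no position. They share the 25 bases in capitals, and 30 bases of each are shown.
H2-K1 probe A_51_P190499: TGACCTAGGGCTGATTTCTTGTTAAgcttc
H2-K1 probe A_51_P198434: TGACCTAGGGCTGATTTCTTGTTAAtttca

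Of the 18 probes, 17 were well above background on all 28 arrays and were tested. The remaining probe, A_52_P246277, is named H2-D1 in the files, was well above background on 3 arrays only and was left out. Between 59.3% and 82.1% of an array's probes were well above background, arrays had a 75th percentile of 172.8 to 556.9 in processed signal, and no spot was saturated. The 3 arrays of slide 8, namely HR replicate 6, HQR replicate 4 and HFD replicate 5, were the highest in that share, at 79.3% to 82.1%. The 14 measured hepatocyte marker genes were detected in every diet group. Levels below are log2 processed signals minus the log2 of the array's 75th percentile, so that a level of 0 is that percentile and a difference of 1 is a 2-fold difference. Levels of different probes cannot be set against each other. Differences were tested with limma over all 32078 kept probes, with Benjamini-Hochberg adjustment and a threshold of 0.05.

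The H2-Q1 level was lower in the livers of all 4 high fat groups than in SD livers. The level was -3.51, -3.38, -2.18, -2.25 and -3.08 in the 5 HQ livers. It ran from -3.76 to -2.53 in the 6 HR livers (median -3.03), from -3.32 to -2.59 in the 6 HQR livers (median -2.89) and from -3.18 to -1.63 in the 6 HFD livers (median -2.96). In the 5 SD livers it was -1.25, -1.12, -1.50, -1.06 and -0.86. All 23 high fat livers lay below every SD liver. The highest of the 23 was HFD replicate 4, at -1.63, 0.13 below the lowest SD liver, and the next was HQ replicate 3 at -2.18.

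**Figure D1:**
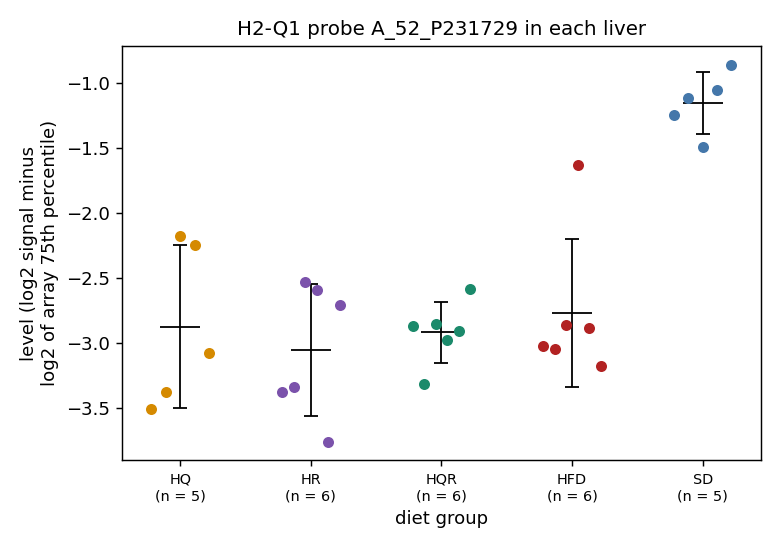
Level of the H2-Q1 probe (log2 signal minus the log2 of the array's 75th percentile) in each of 28 livers, by diet group, with the group mean as a wide bar and 1 SD as whiskers. The 23 high fat livers lie between -3.76 and -1.63, below the 5 SD livers at -1.50 to -0.86.

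The H2-Q1 mean was -2.88 ± 0.63 in HQ livers (SD, n = 5), -3.05 ± 0.51 in HR livers (SD, n = 6), -2.92 ± 0.24 in HQR livers (SD, n = 6) and -2.77 ± 0.57 in HFD livers (SD, n = 6), against -1.16 ± 0.24 in SD livers (SD, n = 5). The HFD level was 32.7% of the SD level, a 3.06-fold lower signal or a log2 difference of -1.61. Against the same SD livers, the differences were -1.72 in HQ, -1.90 in HR and -1.76 in HQR livers, or 30.3%, 26.9% and 29.5% of the SD level. These 4 comparisons share the SD livers. On its original scale the processed signal was 18.8 to 165.7 in the 23 high fat livers (median 48.3), against 109.3 to 173.7 in the SD livers (median 119.7). The probe was thus a dim one, and with normexp background correction, which adds 50 to each spot's net signal, the differences from SD livers were -0.64 in HQ, -0.85 in HR, -1.03 in HQR and -1.02 in HFD livers. With normexp the median over all probes was 0.22, 0.07, -0.07 and -0.16 in the same order. The order of the groups under normexp is therefore not particular to H2-Q1. In bulk liver, fewer cells of a type that expresses H2-Q1 and less H2-Q1 RNA per cell cannot be told apart.

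Among the high fat groups the H2-Q1 levels overlapped. In the order of the means, SD came highest, then HFD, HQ, HQR and HR, and only SD and its neighbour HFD did not overlap. Relative to HFD livers, the difference was -0.11 in HQ, -0.28 in HR and -0.15 in HQR livers. The place of HFD in this order rests on HFD replicate 4, without which these differences were 0.12, -0.05 and 0.08. With normexp and all livers the differences were 0.38, 0.17 and -0.02, and HQR minus HR was -0.18. Over all probes, the normexp medians in these comparisons were 0.31, 0.21, 0.09 and -0.12. Quercetin and resveratrol at the same dose differed by 0.18 (HQ minus HR, 95% interval -0.40 to 0.75, limma adjusted p = 1.00). The mixture, which held less of each compound, differed by -0.04 from quercetin alone (-0.61 to 0.53) and by 0.13 from resveratrol alone (-0.41 to 0.68), both with a limma adjusted p of 1.00. Within slides, the HFD minus SD difference of H2-Q1 ran from -2.32 to -1.78 on the 4 slides that held both diets. The range within slides was -2.26 to -0.75 for HQ minus SD (2 slides), -2.22 to -1.04 for HR minus SD (3 slides) and -1.89 to -1.62 for HQR minus SD (3 slides).

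Within 50 kb, the array held 2 kept probes of H2-Q2, a neighbouring class I gene of the Q region. One starts at -1944 bases from the start of the H2-Q1 probe, counted along the plus strand, and differed by 0.08 in HQ, 0.00 in HR, 0.24 in HQR and 0.04 in HFD livers from SD livers. The other starts at 20162 bases and differed by -0.10, -0.14, -0.32 and -0.26 in the same order. Neither passed the threshold in any of the 10 comparisons.

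Across the 28 arrays, the probes of other genes most correlated with H2-Q1 included those of Gstm2 (Pearson r = 0.77), a glutathione transferase, 1500001A10Rik (0.75), C330023M02Rik (0.74) and Upb1 (0.72), an enzyme of pyrimidine breakdown. These 4 had lower means in each high fat group than in SD livers. They were picked for following H2-Q1, whose levels differed mainly between SD and high fat livers. Their lower means thus follow largely from how they were picked and are no separate finding. For Gstm2, for example, the mean was 4.98 ± 0.39 in HQ, 4.59 ± 0.29 in HR, 4.84 ± 0.35 in HQR and 5.16 ± 0.33 in HFD livers, against 5.60 ± 0.28 in SD livers. When each group's mean was removed, the probes most like H2-Q1 included those of Slc40a1 (0.67), which encodes the iron exporter ferroportin, Dip2c (0.63), Nup54 (0.61) and Fzr1 (0.61). No class I member was among the 5 most correlated probes by either measure. The member closest to H2-Q1 over the 28 arrays was the H2-K1 probe A_52_P50496, with r = 0.50 and Spearman's rho = 0.45.

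The other 16 kept probes were closer to each other across diets. In HFD livers, 12 of the 16 lay below their SD mean, with a median difference of -0.14 and a range from -0.33 to 0.86, and the median over all probes was -0.04, with 44.7% of them above 0. Of all probes, 0.0966% passed the threshold in that comparison, which chose H2-Q1, and no test of a member is given for it. The shares of all probes that passed were 0.0187% for HQ, 0.0561% for HR and 0.0405% for HQR against SD. None of the 16 passed in those comparisons, and 0, 2 and 2 of them had an unadjusted p under 0.05 by limma, where 3.89%, 5.46% and 6.32% of all probes reached it. The medians were -0.11, -0.25 and -0.11, beside -0.05, -0.03 and 0.01 over all probes.

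**Figure D2:**
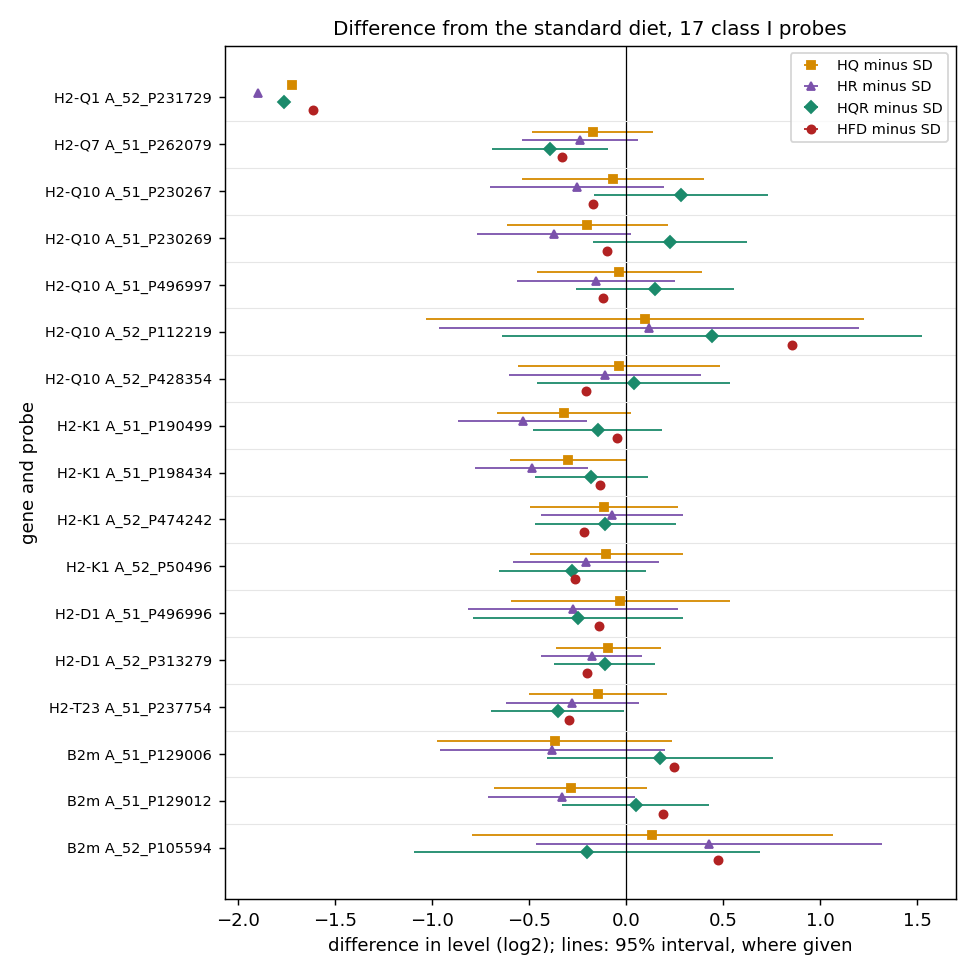
Difference in level (log2) from the SD livers for each of 17 probes, in HQ, HR, HQR and HFD livers, as points, with 95% intervals from the limma fit except for H2-Q1 and for HFD minus SD. The H2-Q1 differences run from -1.90 to -1.61, and those of the other 16 probes from -0.53 to 0.86.

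H2-K1, a classical heavy chain, had lower means in HR than in HFD livers by its like pair of probes and not by its other pair. Probe A_51_P190499 read 7.93, 7.90, 7.67, 7.96 and 7.78 in HQ livers, 7.15 to 7.89 in HR livers (median 7.72) and 7.74 to 8.21 in HQR livers (median 8.03), against 7.97 to 8.40 in HFD livers (median 8.07). All HQ and all HR livers lay below every HFD liver, but the highest HQ liver, at 7.96, nearly met the lowest HFD liver, at 7.97. How many of all probes part these groups was not counted, so this describes the probe only. Its HR minus HFD difference was -0.48 (SE 0.15, 95% interval -0.80 to -0.17, limma adjusted p = 0.83). It was below 0 on each of the 4 slides that held both groups, at -0.96 to -0.09. The difference was -0.27 in HQ livers (95% interval -0.60 to 0.06) and -0.10 in HQR livers (-0.41 to 0.22). In SD livers this probe read 8.52, 8.14, 7.63, 8.30 and 8.24, and HR livers were lower by a mean difference of -0.53 (limma adjusted p = 0.42).

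Probe A_51_P198434 of H2-K1, the mean of 10 spots per array, followed it. It read 8.89, 9.01, 8.79, 9.09 and 9.05 in HQ livers, 8.47 to 9.13 in HR livers and 8.79 to 9.28 in HQR livers, against 8.95 to 9.32 in HFD livers. HR differed from HFD livers by -0.35 (limma adjusted p = 1.00) and from SD livers by -0.49 (95% interval -0.78 to -0.20, limma adjusted p = 0.36). Of the 16 probes this was the smallest adjusted p in any of the 9 comparisons other than HFD against SD. The HR minus SD differences of the pair were -0.27 and -0.15 after quantile normalization. The remaining H2-K1 probes, A_52_P474242 and A_52_P50496, differed by 0.14 and 0.05 between HR and HFD livers, and their groups overlapped in all comparisons.

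H2-D1, the other classical heavy chain, varied little with diet. Probe A_52_P313279 averaged 5.46 ± 0.06 in HQ livers, 5.38 ± 0.12 in HR livers, 5.45 ± 0.18 in HQR livers and 5.35 ± 0.13 in HFD livers, against 5.56 ± 0.21 in SD livers. Its differences from SD livers lay between -0.20 and -0.09. Probe A_51_P496996 spread more, from 3.51 to 5.07 over the 28 livers, and its differences from SD livers were -0.28 to -0.03. Neither probe separated any pair of groups.

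H2-Q7, which encodes the lipid-anchored Qa-2 antigen, and H2-T23, which encodes Qa-1, a ligand of a natural killer cell receptor, had lower means in every high fat group than in SD livers. The H2-Q7 probe read 4.40, 4.87, 4.81, 4.52 and 4.42 in HQ livers, 4.19 to 4.84 in HR livers, 4.09 to 4.67 in HQR livers and 4.23 to 4.58 in HFD livers, against 4.95, 4.71, 4.76, 4.90 and 4.55 in SD livers. The groups overlapped. HFD livers were 0.33 below SD livers, and the difference was -0.39 in HQR livers (95% interval -0.69 to -0.10, limma adjusted p = 0.54). The H2-T23 probe differed from SD livers by -0.15 in HQ, -0.28 in HR, -0.35 in HQR and -0.30 in HFD livers, all with overlapping groups. The H2-T23 and H2-Q7 probes share a run of 28 bases, so their values may not be independent. Whether they shared signal was not tested.

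H2-Q10, the secreted heavy chain, had its highest mean in HQR livers by the probes A_51_P230267, A_51_P230269, A_51_P496997 and A_52_P428354. For A_52_P428354 the margin was small, at 2.20 against 2.16 in SD livers. Probe A_52_P112219 had its highest mean in HFD livers, at 0.87. Probe A_51_P230269 read 7.60, 8.08, 7.28, 7.93 and 7.62 in HQ livers, 6.94 to 8.12 in HR livers (median 7.46) and 7.91 to 8.37 in HQR livers (median 8.11), against 7.46 to 8.18 in HFD livers (median 7.83) and 7.47 to 8.26 in SD livers (median 7.94). All 6 HQR livers lay above the HR mean. For A_51_P230267 and A_51_P230269 the HQR minus HR difference was 0.54 and 0.60. Their 95% intervals were 0.11 to 0.96 and 0.22 to 0.97, with a limma adjusted p of 1.00 for each. On the 3 slides with both groups the difference ran from -0.34 to 1.33 and from -0.01 to 1.29. Probe A_51_P496997, which the files list for 4 class I genes, differed by 0.30 between HQR and HR livers, A_52_P112219 by 0.33 and A_52_P428354 by 0.15. H2-Q1 is among the genes listed for A_51_P496997. That probe differed from SD livers by -0.04 in HQ, -0.15 in HR, 0.15 in HQR and -0.12 in HFD livers. Probe A_52_P112219 was the most variable member, with group SDs of 0.66 to 1.23, and its HFD minus SD difference was 0.86.

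B2m, the light chain common to class I molecules, had lower means in HQ, HR and HQR than in HFD livers by all 3 probes, of which none passed the threshold. Probe A_51_P129012 read 7.81, 7.04, 7.79, 7.97 and 7.71 in HQ livers, 7.08 to 7.95 in HR livers (median 7.67) and 7.68 to 8.29 in HQR livers (median 7.99), against 7.72 to 8.43 in HFD livers (median 8.10). It read 7.88, 7.79, 7.77, 8.28 and 8.03 in SD livers. HFD replicate 5 lay among the HQ and HR livers, and the other 5 HFD livers lay above all of them. The differences from HFD livers were -0.48 in HQ (95% interval -0.85 to -0.10), -0.52 in HR (-0.88 to -0.16) and -0.14 in HQR livers (-0.50 to 0.22), with limma adjusted p-values of 1.00, 0.89 and 0.99.

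Probe A_51_P129006 of B2m read 7.15, 5.41, 6.28, 6.66 and 6.40 in HQ livers and 5.47 to 7.18 in HR livers (median 6.36), against 6.75 to 7.45 in HFD livers (median 6.93). Its differences from HFD livers were -0.62 in HQ, -0.63 in HR and -0.07 in HQR livers, and from SD livers -0.37, -0.38 and 0.17. HQ replicate 2 was the lowest liver of its group for both probes, and without it the HQ minus HFD differences were -0.32 for A_51_P129012 and -0.37 for A_51_P129006. The third B2m probe, A_52_P105594, differed from HFD livers by -0.34 in HQ, -0.05 in HR and -0.68 in HQR livers, with standard errors of 0.41 to 0.43. It did not vary with the other B2m probes across arrays (Pearson r of -0.16 and 0.16), and its r with the H2-Q10 probe A_52_P112219 was 0.69.

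**Figure D3:**
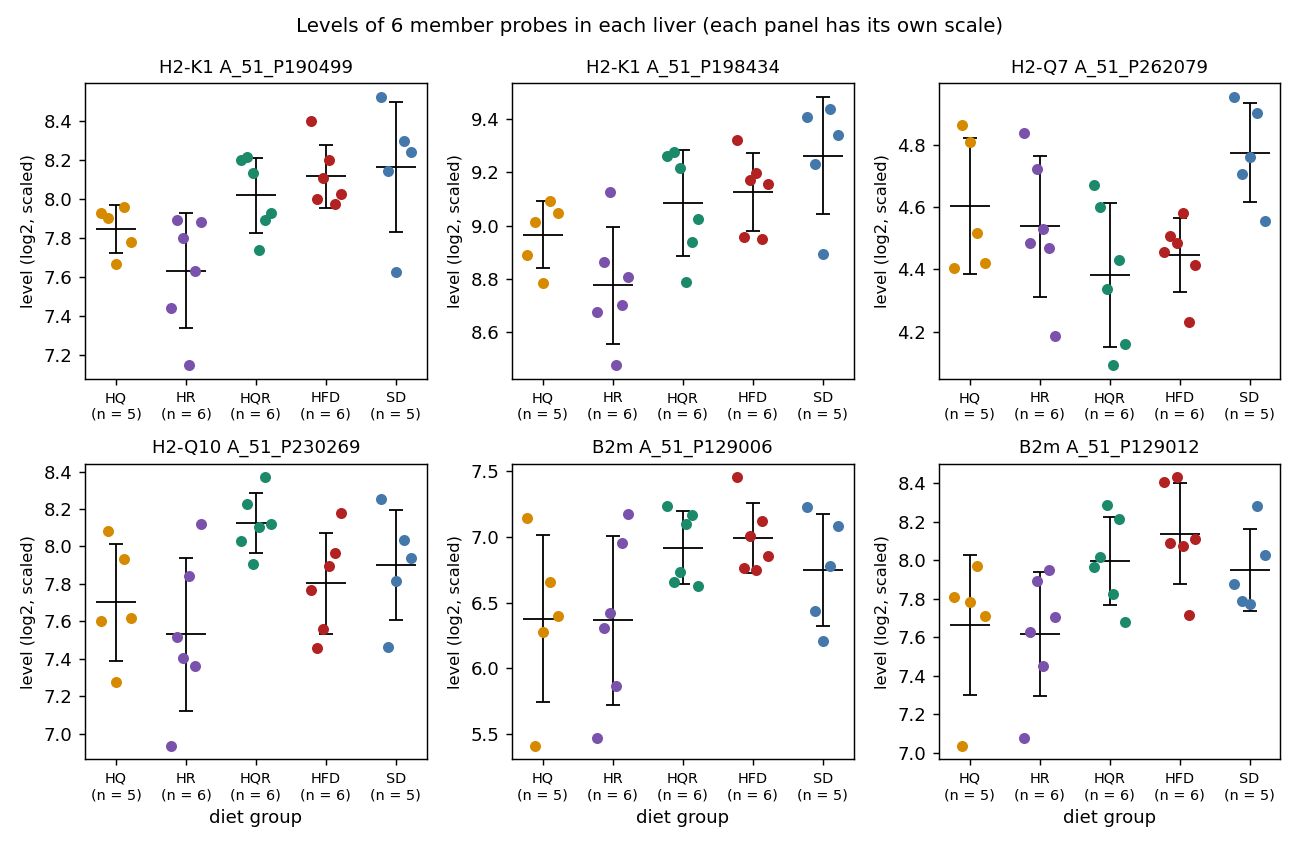
Levels (log2, scaled to the array's 75th percentile) of 6 member probes in each liver by diet group, with group means as wide bars and 1 SD as whiskers; each panel has its own scale. H2-K1 A_51_P190499 lies lower in every HQ and HR liver than in every HFD liver, with the highest HQ liver close to the lowest HFD liver. The H2-Q7, H2-Q10 and B2m panels show groups that overlap.

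In the comparisons of the supplements with HFD, none of the 16 probes besides H2-Q1 passed. The shares of all probes that passed were 0% for HQ, 0.00935% for HR and 0% for HQR against HFD. At an unadjusted p under 0.05 by limma, the counts were 2 of 16 for HQ, 4 of 16 for HR and 1 of 16 for HQR, where 2.10%, 4.47% and 1.35% of all probes reached it. The 4 in HR livers were the like pair of H2-K1 probes and 2 B2m probes, all lower than in HFD livers. Some of these probes measure the same RNA, so the counts are not of independent genes.

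**Figure D4:**
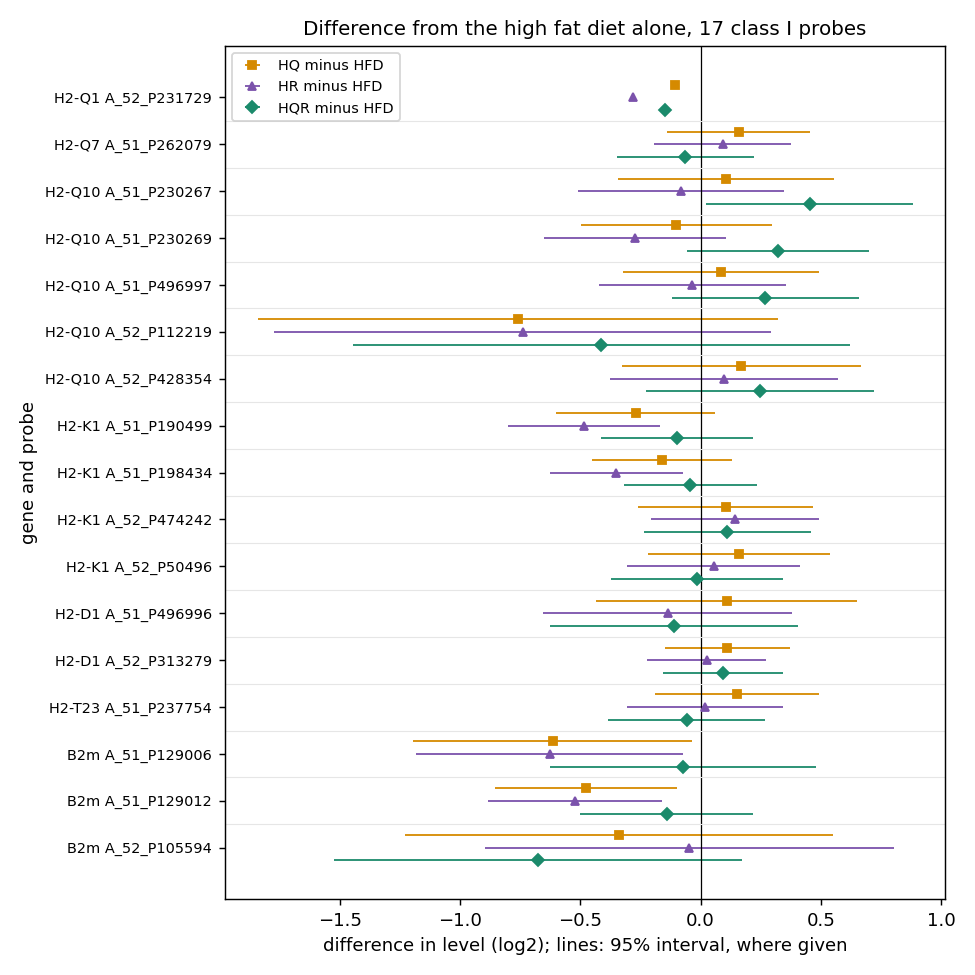
Difference in level (log2) from the HFD livers for each of 17 probes, in HQ, HR and HQR livers, as points, with 95% intervals from the limma fit except for H2-Q1. B2m A_51_P129006 and A_51_P129012 and the like pair of H2-K1 probes lie below 0 in HQ and HR livers, and the differences of H2-Q1 lie between -0.28 and -0.11.

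Between supplements, all 17 probes were tested and none passed for HQ against HR, HQR against HQ or HQR against HR, where the share of all probes that passed was 0% each. Quercetin and resveratrol were fed at the same dose, and 14 of the 17 probes had a higher mean in HQ than in HR livers, with a median difference of 0.11 beside -0.03 over all probes, of which 44.8% lay above 0. The differences ran from -0.29 for the B2m probe A_52_P105594 to 0.25 for the H2-D1 probe A_51_P496996, and 0 probes had an unadjusted p under 0.05 by limma, as 1.41% of all probes did. For HQR against HQ, 10 of 17 differences lay above 0 (median 0.08, all probes 0.04 with 58.2% above 0), and 1 probe had an unadjusted p under 0.05, as 1.44% of all probes did. For HQR against HR, 12 of 17 lay above 0 (median 0.15, all probes 0.02 with 53.8% above 0), and 6 had an unadjusted p under 0.05, as 2.65% of all probes did. These were 2 probes each of H2-Q10, H2-K1 and B2m. The doses of each compound differed in these comparisons with HQR livers.

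Probes of the same gene did not always vary together across the 28 arrays. Over 20 pairs of probes of the same gene, Pearson's r ran from -0.36 to 0.92 with a median of 0.38, and over 116 pairs of different genes from -0.48 to 0.89 with a median of 0.14. The pair of H2-Q7 and H2-T23 probes, with its shared run, had r = 0.89 (Spearman's rho = 0.86) and r = 0.87 after the group means were removed. The like pair of H2-K1 probes had r = 0.92 (rho = 0.92). This pair correlated with the other H2-K1 probes at only -0.36 to -0.03. Probes A_52_P474242 and A_52_P50496 correlated with each other (0.85), with the H2-Q10 probe A_52_P428354 (0.85 and 0.79) and with the H2-D1 probe A_51_P496996 (0.72 and 0.71). Without the 2 arrays farthest from the median, the correlations with these probes of other genes were 0.62 to 0.81. For B2m, A_51_P129006 and A_51_P129012 had r = 0.75 (rho = 0.54), which was 0.51 without the 2 farthest arrays. These correlations describe arrays that share their labelling and scans, and are given without a test.

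**Figure D5:**
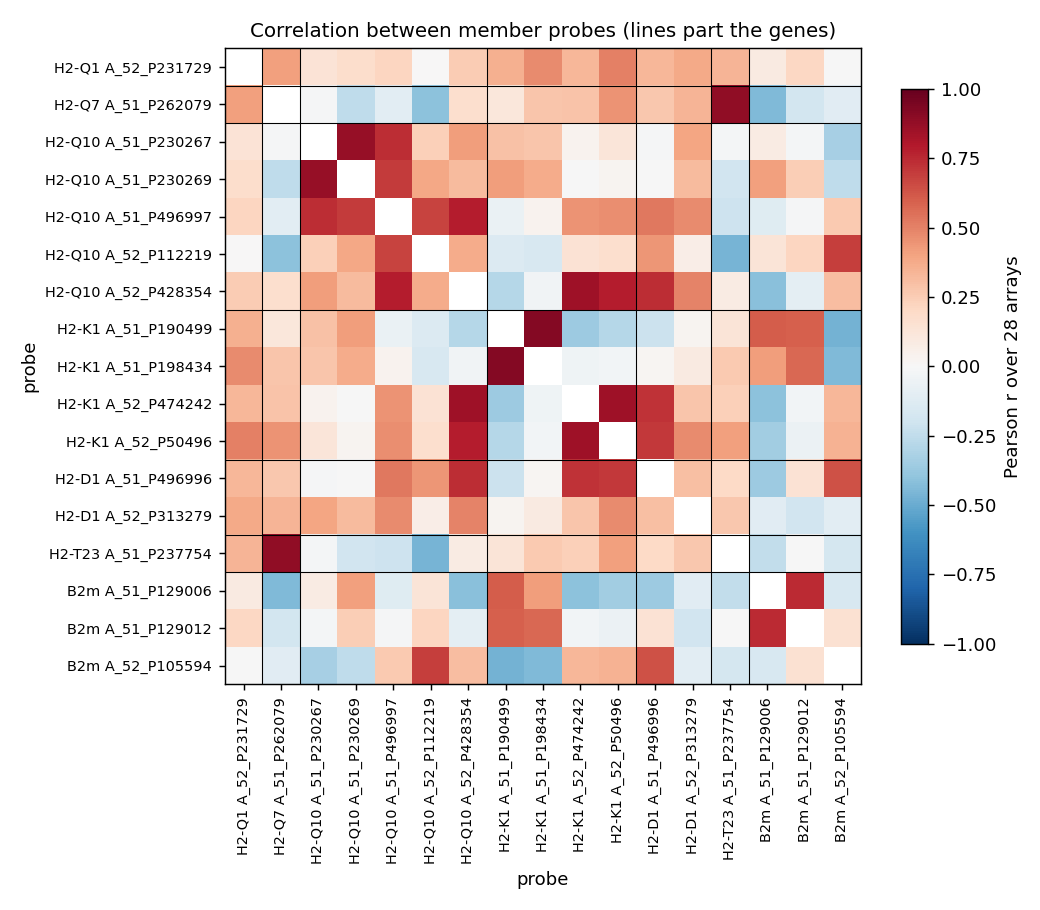
Pearson correlation over 28 arrays between each pair of the 17 kept member probes, on a colour scale from -1 to 1; lines part the genes. The darkest off-diagonal cells outside a gene join H2-Q7 with H2-T23 (0.89) and join the H2-K1 probes A_52_P474242 and A_52_P50496 with H2-Q10 A_52_P428354 (0.85 and 0.79).

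Probes of H2-Q7, H2-K1 and B2m were printed in 10 spots each, and the median SD between spots of an array was 0.05, 0.06 and 0.05 on the log2 scale. The mean SD between livers of a group was 0.19, 0.18 and 0.45 for the same probes. The spots of an array share its labelling and scan, so their SD leaves out the error between arrays.

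Genes that act with class I molecules were described by lists, with 1 probe per gene. Of 20 measured other class I and class I-like genes, 17 genes of peptide loading and transport, 10 proteasome genes of the immunoproteasome list, 25 regulators of class I transcription, 28 interferon response genes, 11 class II genes and 14 genes of receptors for class I, none passed the threshold in any of the 10 comparisons. For HFD against SD, 5 of the 20 other class I genes lay above 0, with a median of -0.15. The medians of the remaining lists were 0.03 for loading and transport, 0.09 for the immunoproteasome, 0.01 for regulators, -0.04 for interferon response, 0.10 for class II and 0.02 for receptors, beside -0.04 for all probes. Irf2, an interferon regulatory factor, had the smallest adjusted p of these lists in that comparison, with a difference of 0.81 (SE 0.25, limma adjusted p = 0.46). It also differed by -0.67 in HQ and -0.79 in HR livers from HFD livers, with limma adjusted p-values of 1.00 and 0.80.

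For HR against HFD, where the like pair of H2-K1 probes and 2 B2m probes were lower, 15 of 17 loading and transport genes and 8 of 10 immunoproteasome genes lay below 0, with medians of -0.14 in each list, beside 0.02 over all probes, of which 53.7% lay above 0. For HQR against HFD, 11 of 17 and 10 of 10 lay below 0, with medians of -0.12 and -0.17. For HQ against HFD the counts were 10 of 17 and 6 of 10, with medians of -0.07 and -0.06. Of all probes, 57.8% lay above 0 for HQR against HFD and 48.2% for HQ against HFD. Other lists did not share the lower values for HR against HFD. Below 0 were 14 of 28 interferon response genes, 9 of 25 regulators, 4 of 11 class II genes and 4 of 14 receptor genes. Of the 28 interferon response genes, 23 lay above 0 for HQ against HFD (median 0.22). For HQR against HQ, 26 of 28 lay below 0 (median -0.44), where 58.2% of all probes lay above 0. Examples for HR against HFD are Sec61a1 and Psmb9. Sec61a1, a subunit of the channel into the endoplasmic reticulum, differed by -0.62 (limma adjusted p = 0.94). Psmb9, an immunoproteasome subunit, differed by -0.33 (limma adjusted p = 1.00). Of the 20 other class I genes, 13 lay below 0 for HR against HFD, with a median of -0.05. In the same comparison, H2-M10.6 had the highest difference of that list, 0.57. Its group SDs were 0.90 in HR and 1.14 in HFD livers, and its probe was well above background on only 8 arrays. H2-T22 differed by -0.53 (SE 0.16, limma adjusted p = 0.80) by 1 probe and by -0.10 and 0.25 by its other probes, and Mr1, which presents vitamin metabolites to T cells, by -0.52 (limma adjusted p = 1.00). No gene of these lists passed.

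Markers of liver cell types were described by lists too, and the summed levels given here overlapped between groups. Their level is given as the log2 of the summed scaled signal of a list. The 14 hepatocyte markers had summed levels of 10.95 to 11.73 in HQ, 10.97 to 11.68 in HR, 11.13 to 11.55 in HQR and 10.89 to 11.79 in HFD livers, against 11.22 to 12.16 in SD livers, and 12 of 14 were below SD in HFD livers. The 10 leukocyte markers had summed levels of 3.73 to 4.31 in HQ, 3.64 to 4.44 in HR, 3.71 to 4.35 in HQR and 3.33 to 4.69 in HFD livers, against 2.89 to 4.39 in SD livers, and all 10 were above SD in HFD livers. In HR livers, 14 of 14 sinusoidal endothelial markers and 9 of 10 Kupffer cell markers were above HFD livers, with medians of 0.54 and 0.52. In HQ livers the counts were 14 of 14 and 7 of 10 (medians 0.36 and 0.16). In HQR livers they were 13 of 14 and 7 of 10 (medians 0.25 and 0.24). Of all probes, 53.7% lay above 0 for HR, 48.2% for HQ and 57.8% for HQR against HFD. For HFD against SD that share was 44.7%. The summed levels of these endothelial and Kupffer cell markers were 6.03 to 6.66 and 5.40 to 6.10 in HR livers. In HFD livers they were 4.84 to 6.26 and 5.14 to 5.73. Each marker was well above background on at least 1 array of every group, except 1 Kupffer cell, 1 natural killer cell and 1 leukocyte marker in HQ livers. None passed the threshold, and their part in the class I values was not tested. The median HFD minus SD differences were -0.12 for 14 T cell, -0.07 for 11 natural killer cell and -0.06 for 10 B cell markers. They were 0.25 for 13 myeloid and dendritic cell, 0.29 for leukocyte and 0.03 for endothelial markers. Kupffer cell and hepatocyte markers had the lowest medians, at -0.36 (7 of 10 below 0) and -0.26. Relative to SD livers, the Kupffer cell medians with supplements were -0.21 (HQ), 0.21 (HR) and -0.06 (HQR). The hepatocyte medians were -0.39 (HQ), -0.37 (HR) and -0.47 (HQR), with 13, 13 and 12 of 14 markers lower.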

How the data were processed

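Liver RNA was labelled with Cy3 and hybridised to 1-colour Agilent arrays, and the authors deposited the scanner output of Feature Extraction 10.5.1.1, per the file headers. Its processed signal is an intensity that is already background-subtracted, per the file headers. The authors also deposited a value table, used as an alternative, whose values are a score. Set against the scanner values, each column was log2 signal centred on its mean and divided by its SD, with the direction kept and column medians of -0.17 to -0.10. Spots of a probe were averaged without outlier-flagged spots, and log2 signals were scaled to each array's 75th percentile. Probes well above background on at least 5 of 28 arrays were kept. All 28 arrays entered 1 fit in limma 3.58.1 (R 4.3.3), with 10 comparisons and Benjamini-Hochberg adjustment over 32078 probes. The number of arrays limits the precision. Arrays came from 9 slides scanned on 4 days, and slide was tried as a block. Deviations of the 5 same-numbered pairs of HFD and SD livers correlated at 0.21 to 0.69. In every other comparison the lowest such correlation was below 0. Livers with different numbers were not compared, so this cannot show a pairing, and the fit used none. Members were taken by gene name. In each gene list, the probe with the highest mean level stood for a gene. The genes named were among those with the smallest p, except H2-M10.6, which had the highest difference of its list for HR against HFD. The members and lists were chosen with earlier results of these data known. Probe positions are those of build mm9 in the files. Some of the genes most correlated with H2-Q1 are not reported here.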

Additional observations from a re-analysis of the deposited data

Results flagged for a closer look

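Of 85 groups of values examined, 7 held a liver far from the others of its group, and chance gives about 1 in 20. H2-Q1 was highest in HFD replicate 4, at -1.63, where the next HFD liver was at -2.86. H2-Q10 probe A_52_P112219 was lowest in HQR replicate 1, at -2.01, with the next HQR liver at 0.68. B2m probe A_52_P105594 was lowest in the same liver, at -1.36, with the next at 0.46. H2-D1 probe A_51_P496996 was lowest in HQ replicate 1, at 3.51, with the next HQ liver at 4.46. H2-D1 probe A_52_P313279 was lowest in HR replicate 5, at 5.15, and highest in HQR replicate 4, at 5.79, with the nearest livers of those groups at 5.37 and 5.45. B2m probe A_51_P129012 was lowest in HQ replicate 2, at 7.04, with the next HQ liver at 7.71.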

How the results depend on the processing

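The count of members past the threshold against SD was 1 in each high fat group. It holds only H2-Q1, which was selected on the HFD minus SD difference, so it and its changes below describe the fits and are no test of H2-Q1. The count was 0 for HFD against SD with scaling to the array median, with normexp and with the compared groups alone. It was 0 for HQ against SD with normexp, quantile normalization, the deposited value table, scaling to the array median, the compared groups alone, array weights, slide as a block and without slide 8, and 0 to 1 when 1 array was left out. It was 0 without SD replicate 1, 4 or 5 and without HQ replicate 1, 2 or 5. It was 0 for HR against SD with normexp and with the compared groups alone, and 0 for HQR against SD with normexp. The cause was not tested. With the replicate block the counts were 1 in these 4 comparisons and 0 in the other 6, so the block changed no call. In the 6 comparisons among high fat groups the count was 0 under every alternative run. Counts over all probes for HFD against SD were 31 as reported, 20 with scaling to the array median, 19 with normexp and 13 with the compared groups alone. Of 4354 values of single probes under an alternative, 35 moved by 1 SD or more, 23 of them with normexp, and none of the called values turned round. Normexp moved the median of all probes to 0.31 for HQ minus HFD and -0.22 for HQR minus HQ. Signal over background is a limit for H2-Q1, whose median processed signal was 48.3 in high fat livers.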
